A study of Mus musculus with 28 samples.

Results

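The pentose phosphate pathway was followed through 8 genes, taken by name as the enzymes of its textbook reactions and not by any measured value: G6pdx, Pgls, Pgd, Rpia, Rpe, Tkt, Taldo1 and Shpk. They are 8 of the 54532 genes in the count table, and all 8 had counts in every culture. RNA was sequenced from 28 cultures of murine bone marrow-derived macrophages (BMDMs), which are bone marrow cells of C57/B6JB mice, aged 8 to 12 weeks, grown into macrophages with M-CSF. Control cultures received PBS, VWF cultures received 10 µg/ml of plasma-derived von Willebrand factor (pd-VWF) and LPS cultures received 100 ng/ml of bacterial lipopolysaccharide, and all were kept in medium with calcium chloride for 3.5 h or 16 h. Each time had 5 control, 5 VWF and 4 LPS cultures. The labels call them biological replicates and do not say which came from separate mice, so p-values measure the spread between these cultures.

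The pathway branches off glycolysis at glucose 6-phosphate. Its oxidative branch, which includes 6-phosphogluconolactonase (Pgls) and 6-phosphogluconate dehydrogenase (Pgd), turns this sugar into ribulose 5-phosphate and makes NADPH, which macrophages use for the oxidative burst, for nitric oxide synthesis and for reducing glutathione. The non-oxidative branch interconverts pentoses, through ribose 5-phosphate isomerase (Rpia) and ribulose phosphate 3-epimerase (Rpe), and links them back to glycolysis through transketolase (Tkt) and transaldolase (Taldo1). Sedoheptulokinase (Shpk) phosphorylates free sedoheptulose to the intermediate that transketolase and transaldolase share, and it is known from macrophage work as a brake on LPS-driven activation. These are statements about the enzymes, and only transcripts were measured here.

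The cultures held between 41131209 and 77699206 counts in all. Levels are given as CPM, counts scaled to a common library total with TMM factors over all cultures, and, between genes, as CPM per kb of exon. The exon length is that of all annotated exons of a gene, merged, and not that of the transcript in use. TMM factors were 0.745 to 0.849 in LPS and 1.04 to 1.24 in control cultures. Scaling by library size alone moved the median log2 fold change of all genes against control to -0.22 for VWF and -0.55 for LPS at 3.5 h, and to -0.09 and -0.59 at 16 h, so every change below is relative to the TMM scale. Of the macrophage markers, Lyz2 lay at 1696 CPM per kb or more in every culture, and Mertk was lowest, at 1.99 to 30.2 CPM per kb. Cd3e and Ly6g did not exceed 0.0351 CPM per kb in any culture, but the T cell marker Lck reached 19.5 CPM per kb with LPS at 3.5 h, the neutrophil markers S100a8 and S100a9 reached 34.5 and 20.1 and the fibroblast marker Col1a1 reached 26.1 CPM per kb. The part of such cells in the results was not tested. In bulk RNA, fewer cells of a type and less RNA per cell cannot be told apart. Control replicate 5 and LPS replicate 4 at 16 h stood apart from their groups: the SD of their log2 deviations from the group mean over genes was 0.821 and 0.602, against 0.148 to 0.389 in the other 26 cultures. In both, long transcripts were low relative to short ones. The slope of their deviations on log2 transcript length was -0.175 and -0.152, against -0.123 to 0.142 in the other 26, so a length trend was not particular to them. Where leaving out these 2 libraries changed the call of a member, it is given without them, a choice made after the data had been seen.

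The 8 genes lie on 8 chromosomes (GRCm38, GENCODE M21). Exons of G6pdx (chrX:74409483-74429194, minus strand) overlap Ikbkg on the opposite strand over 13.6% of their length, those of Pgls (chr8:71592176-71601092, plus strand) overlap Fam129c on the same strand over 20.6%, and those of Rpe (chr1:66700831-66719805, plus strand) overlap Kansl1l on the opposite strand over 17.9%. The strand setting of the counting is not given in the sources used here, so reads in these stretches may be shared or lost. Pgd (chr4:149149991-149166771, minus), Taldo1 (chr7:141392199-141402968, plus) and Shpk (chr11:73199460-73224511, plus) have no exon overlap. Tkt (chr14:30548359-30574720, plus) shares 1 base with Mir3076, and Rpia (chr6:70765720-70792232, minus) shares 0.659% of its 100-base windows with other genes.

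The promoter windows of 5 members, 250 bases before to 50 bases after the RefSeq start (GRCm38.p6), are shown: those of G6pdx and Rpe as examples with a motif match, those of Tkt and Taldo1 as the enzymes of the sugar transfers, and that of Shpk for its early fall. All 8 members had a window, and Pgd had 2. Capitals mark matches, on either strand, to the antioxidant response element core TGACNNNGC, the hypoxia response element core ACGTG (also part of the E-box), the NF-kB consensus and the interferon-stimulated response element GAAANNGAAA. They are written on the gene's own strand and lie at chrX:74428831-74429130, chr1:66700581-66700880, chr14:30548881-30549180, chr7:141391910-141392209 and chr11:73199232-73199531.
G6pdx: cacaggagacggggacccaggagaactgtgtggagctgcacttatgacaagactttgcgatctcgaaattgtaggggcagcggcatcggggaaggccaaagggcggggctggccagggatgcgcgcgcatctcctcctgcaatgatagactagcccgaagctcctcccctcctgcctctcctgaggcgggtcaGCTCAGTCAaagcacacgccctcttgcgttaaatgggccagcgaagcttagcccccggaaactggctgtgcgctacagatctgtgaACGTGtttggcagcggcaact
Rpe: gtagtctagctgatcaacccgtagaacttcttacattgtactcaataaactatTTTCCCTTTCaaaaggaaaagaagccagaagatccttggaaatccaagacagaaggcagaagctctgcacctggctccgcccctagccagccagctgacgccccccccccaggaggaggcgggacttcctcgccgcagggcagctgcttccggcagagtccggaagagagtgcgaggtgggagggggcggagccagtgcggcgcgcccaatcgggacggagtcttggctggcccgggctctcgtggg
Tkt: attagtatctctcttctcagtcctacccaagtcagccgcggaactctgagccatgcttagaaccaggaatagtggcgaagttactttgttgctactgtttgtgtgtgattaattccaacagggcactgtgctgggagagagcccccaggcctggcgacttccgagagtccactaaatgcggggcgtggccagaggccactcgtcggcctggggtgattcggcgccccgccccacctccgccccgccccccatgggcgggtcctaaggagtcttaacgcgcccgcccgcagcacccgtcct
Taldo1: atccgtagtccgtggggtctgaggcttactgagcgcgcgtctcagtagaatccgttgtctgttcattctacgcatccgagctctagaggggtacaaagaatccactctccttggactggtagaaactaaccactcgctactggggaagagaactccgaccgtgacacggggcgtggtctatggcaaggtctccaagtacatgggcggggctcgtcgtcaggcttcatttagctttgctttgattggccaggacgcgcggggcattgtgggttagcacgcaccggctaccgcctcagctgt
Shpk: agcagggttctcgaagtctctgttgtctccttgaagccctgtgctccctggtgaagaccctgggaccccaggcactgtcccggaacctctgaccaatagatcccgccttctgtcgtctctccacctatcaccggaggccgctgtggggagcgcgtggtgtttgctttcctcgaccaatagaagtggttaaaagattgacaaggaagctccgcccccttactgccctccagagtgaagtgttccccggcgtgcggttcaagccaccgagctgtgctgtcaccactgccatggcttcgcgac

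The G6pdx window held 1 antioxidant element match, 57 to 49 bases before the start, and 1 hypoxia core match after it. The Rpe window held 1 interferon element match. It was found only after the letters of the interferon and NF-kB motifs had been changed, a first search having found neither in a member. The windows of Tkt, Taldo1 and Shpk held none of the 4 motifs. Among the members not shown, the Pgd window at chr4:149166033-149166332 held an antioxidant element match, 3 to 11 bases after its start. The other Pgd window, at chr4:149166656-149166955, which holds the GENCODE start of the gene, held no match, nor did those of Pgls and Rpia. Of all 32851 RefSeq windows, 12.4% held the antioxidant element, 19.6% the hypoxia core, 4.51% the NF-kB consensus and 3.44% the interferon element. A match describes letters and is not a measured binding site.

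Taldo1 had the highest level per kb of the 8 members in 28 of 28 cultures and Shpk the lowest in 28 of 28. Averaged over the cultures, Taldo1 stood at 324 CPM per kb, 55.4% of the members' sum, followed by Pgd at 96.2, Tkt at 59.9, G6pdx at 44.7, Pgls at 43.5, Rpe at 13.3, Rpia at 2.75 and Shpk at 0.864 CPM per kb. These ranks and shares rest on the merged exon lengths, 2171 bases for Taldo1, 6447 for Pgd and 7355 for Tkt. In CPM, without a length, Pgd averaged 685 against 558 for Taldo1 with LPS at 16 h, and Taldo1 averaged higher in every other group. Pgd exceeded Tkt in 27 of 28 cultures, and Tkt exceeded Pgls in 27. The order of neighbours was unsettled in the middle: Tkt exceeded G6pdx in 22 cultures, with 3 of the 4 LPS cultures at 16 h among the exceptions, and G6pdx exceeded Pgls in 13 of 28. Across the 6 group means, Shpk spanned a log2 range of 3.02, more than 88.2% of genes, and each of the others spanned less than the all-gene median of 1.21, from 0.48 for Rpia to 1.17 for Pgls.

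**Figure D1:**
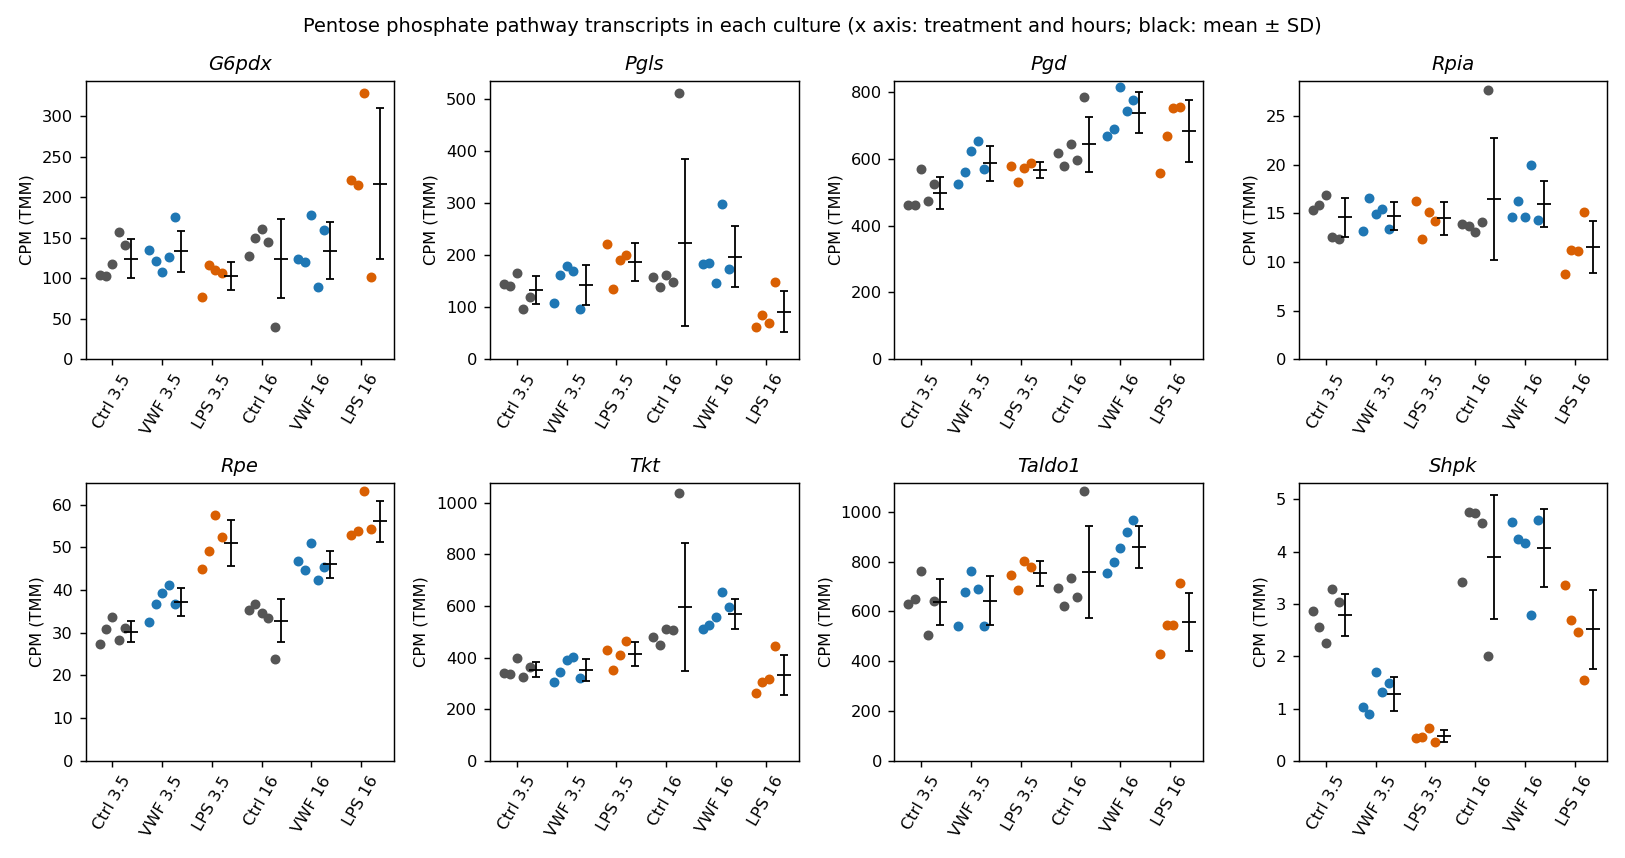
CPM (TMM-scaled, linear axes from 0) of the 8 members in each of 28 cultures, by treatment and hours, with black bars for the mean ± SD. Shpk is lowest with LPS at 3.5 h (0.366 to 0.633 CPM), and 1 control culture at 16 h lies apart in several panels, with Pgls at 511 CPM and Tkt at 1038 CPM.

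A member passed at an adjusted p under 0.05 in edgeR's quasi-likelihood test, with Benjamini-Hochberg adjustment over all genes that reached 10 TPM in at least 1 culture of the comparison. Under this filter 6 or 7 members were tested, since Shpk never reached 10 TPM and Rpia did so in 1 culture only, Control replicate 5 at 16 h. With VWF at 3.5 h, 1 of 6 tested members passed, Rpe, which was higher; of all 8200 genes tested, 22.3% were higher and 21.3% lower. With LPS at 3.5 h, Pgls and Rpe were higher and 4 of 6 did not pass, beside 31.8% higher and 33.9% lower of 8190 genes. With VWF at 16 h, 1 of 7 passed, again Rpe, beside 13.1% higher and 14.7% lower. With LPS at 16 h, Rpe was higher, Pgls and Tkt were lower and 4 of 7 did not pass, beside 27.3% higher and 26.4% lower. These comparisons share the control cultures of each time. In each of the 4, the share of members that passed was below the share of all genes, but it rests on 6 or 7 members without Shpk. With LPS this order was not steady. At 16 h it turned without the 2 libraries that stood apart, where 5 of 6 members and 75.2% of genes passed. There it also turned in one fit of all groups (6 of 7 members, 65.2% of genes) and under library size scaling (5 of 7, 68.1%). With a slope on transcript length as a covariate, described below, it turned at 16 h (6 of 7, 75.9%) and at 3.5 h (6 of 6, 76.5%).

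VWF was set directly against LPS at both times. At 3.5 h, Rpe was lower with VWF and the other 5 of 6 did not pass, where 26.3% of genes were higher and 24.0% lower. In DESeq2, Tkt and Taldo1 also passed as lower with VWF (-0.27 and -0.26, adjusted p = 0.0245 and 0.025), where 56.1% of genes passed. At 16 h, Pgls, Tkt and Taldo1 were higher with VWF and Rpe was lower, 4 of 6, where 29.5% of genes were higher and 31.0% lower. Between 3.5 h and 16 h, Pgd and Tkt were higher in controls, 2 of 7 (20.7% of genes higher, 20.5% lower). Pgd, Rpe, Tkt and Taldo1 were higher in VWF cultures, 4 of 6 (34.7% higher, 33.2% lower). In LPS cultures G6pdx and Pgd were higher and Pgls lower, 3 of 6 (31.8% higher, 29.1% lower). For the change of the VWF effect with time, 0 of 7 members passed in edgeR, 0 had an unadjusted p under 0.05 and 0 passed in DESeq2 (15.9% of genes higher, 16.6% lower). The LPS effect was lower at 16 h than at 3.5 h for Pgls, Tkt and Taldo1, 3 of 7 (25.0% higher, 23.8% lower).

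**Figure D2:**
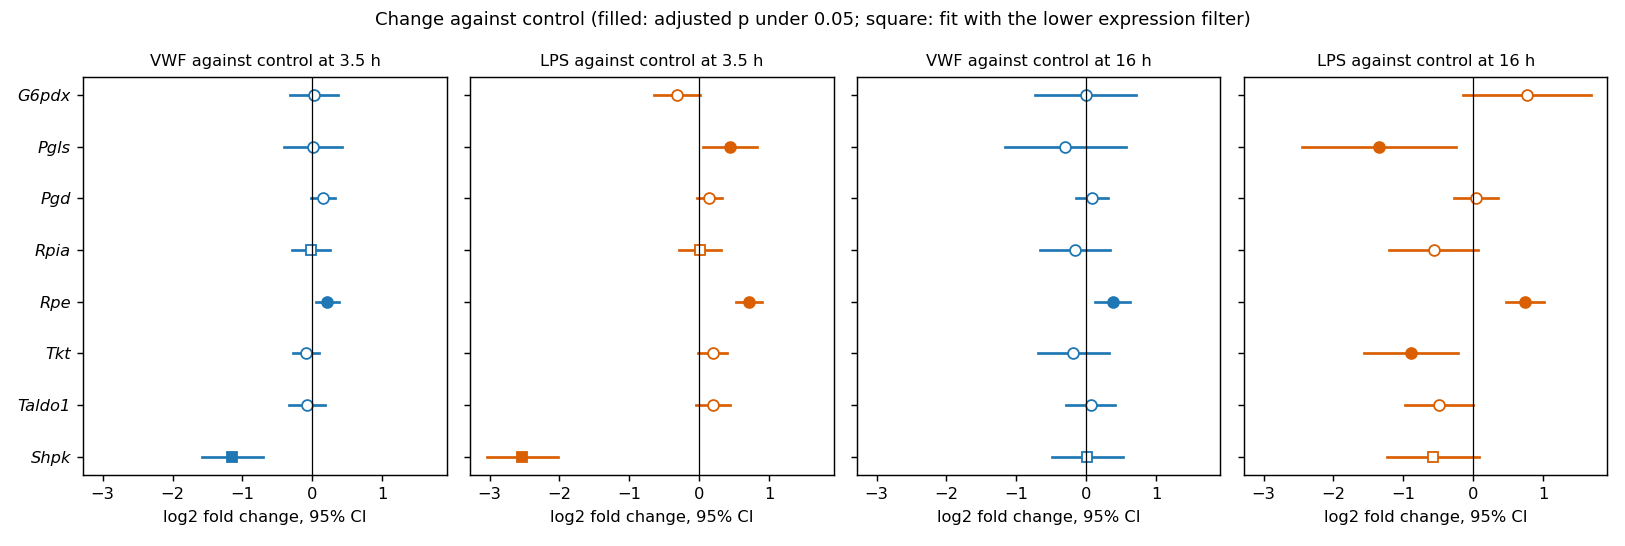
Log2 fold change against control of each member with its 95% confidence interval, for VWF (blue) and LPS (orange) at 3.5 h and 16 h; filled symbols passed at an adjusted p under 0.05, and squares come from the fit with edgeR's lower expression filter. Rpe lies above 0 in all 4 panels, and Shpk reaches -2.53 with LPS at 3.5 h.

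Shpk was the member with the largest change, an early fall with both treatments. Since it stayed under 10 TPM, it was tested with edgeR's default expression filter. Control cultures at 3.5 h held 2.86, 2.56, 2.26, 3.28 and 3.04 CPM, VWF cultures 1.03, 0.902, 1.69, 1.32 and 1.48 CPM, and LPS cultures 0.434, 0.457, 0.633 and 0.366 CPM. The 3 groups did not overlap. VWF lowered it 2.21-fold (log2 -1.14, SE 0.20, adjusted p = 0.000588 in edgeR, n = 5 and 5) and LPS 5.78-fold (log2 -2.53, SE 0.23, adjusted p = 1.71e-06, n = 5 and 4), where 18.3% and 30.8% of all genes in these fits were lower. The LPS value rests on 13 to 23 counts per culture. VWF cultures lay 2.58-fold above LPS cultures (adjusted p = 0.00307), beside 20.4% of genes.

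At 16 h the Shpk levels of the 3 groups lay closer together. Controls held 3.43, 4.75, 4.74, 4.54 and 2.01 CPM, VWF cultures 4.58, 4.24, 4.17, 2.79 and 4.61 CPM, and LPS cultures 3.37, 2.69, 2.47 and 1.54 CPM. The VWF and control ranges overlapped (log2 0.02, 95% interval -0.49 to 0.52, not past the test), and LPS lay at log2 -0.57 (interval -1.24 to 0.09, adjusted p = 0.143 in edgeR), or at -0.56 with an adjusted p of 0.0187 without the 2 libraries that stood apart. VWF exceeded LPS by 0.63 on the log2 scale (adjusted p = 0.0436, beside 25.5% of genes higher), and by 0.47 with an adjusted p of 0.0651 without those 2; the call was lost when any of 7 of the 9 cultures was left out (adjusted p up to 0.0898). In controls Shpk was 0.47 higher at 16 h than at 3.5 h on the log2 scale (adjusted p = 0.126), and 0.63 (adjusted p = 0.00581) without Control replicate 5. From 3.5 h to 16 h Shpk rose 3.20-fold with VWF (adjusted p = 2.45e-05) and 5.45-fold with LPS (adjusted p = 0.000152), where 29.8% and 27.6% of genes rose. The treatment effect differed between the times for VWF (log2 1.19, SE 0.31, adjusted p = 0.00608, beside 12.0% of genes) and for LPS (log2 1.94, SE 0.37, adjusted p = 0.000405, beside 19.2%).

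Rpe, the epimerase that feeds xylulose 5-phosphate to transketolase, was the member that passed against control with both treatments at both times. At 3.5 h it measured 27.4, 30.9, 33.7, 28.3 and 31.0 CPM in controls, 32.5, 36.8, 39.4, 41.1 and 36.8 CPM with VWF and 44.9, 49.2, 57.5 and 52.5 CPM with LPS. All LPS cultures lay above all others, and 1 VWF culture fell within the control range. VWF raised it 1.16-fold (log2 0.22, SE 0.07, adjusted p = 0.0333 in edgeR) and LPS 1.63-fold (log2 0.71, SE 0.08, adjusted p = 2.22e-05), and VWF cultures stayed 1.38-fold below LPS cultures (adjusted p = 0.00103). When cultures were scaled by library size alone, these calls were lost: the VWF difference was -0.0010 on the log2 scale, the LPS difference 0.17 (adjusted p = 0.0599) and VWF against LPS -0.17 (adjusted p = 0.0746). The VWF difference also lost its call when any of 5 of the 10 cultures was left out (adjusted p up to 0.0765, log2 0.18 to 0.25).

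At 16 h Rpe measured 35.3, 36.7, 34.5, 33.5 and 24.0 CPM in controls, 46.8, 44.7, 51.0, 42.5 and 45.5 CPM with VWF and 52.8, 53.9, 63.2 and 54.4 CPM with LPS. The 3 groups did not overlap. The rise was 1.30-fold with VWF (log2 0.38, SE 0.11, adjusted p = 0.0272 in edgeR) and 1.67-fold with LPS (log2 0.74, SE 0.12, adjusted p = 0.000527). Without the 2 libraries that stood apart these were 0.29 (adjusted p = 0.00414) and 0.66 (adjusted p = 3.05e-05). The VWF rise lost its call without any of Control replicate 4 and VWF replicates 1, 2 and 3 (adjusted p up to 0.0635). VWF cultures lay 1.24-fold below LPS cultures (adjusted p = 0.0057), a direction that turned to 0.14 under library size scaling. Both rises lost their calls under library size scaling, at 0.31 with VWF (adjusted p = 0.198) and 0.17 with LPS (adjusted p = 0.435). In controls Rpe was 0.16 higher at 16 h than at 3.5 h on the log2 scale (adjusted p = 0.225), and 0.25 (adjusted p = 0.00925) without Control replicate 5. Kansl1l, whose exons overlap Rpe, averaged 5.01 CPM with LPS against 6.77 CPM in controls at 3.5 h, and 9.42 against 4.39 CPM at 16 h, where its direction was that of Rpe.

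The isomerase Rpia, which makes ribose 5-phosphate for nucleotides, was low, between 8.73 and 27.7 CPM, with 409 to 1569 counts per culture. The highest value belonged to Control replicate 5 at 16 h, and the other 4 controls at 16 h lay between 13.1 and 14.1 CPM. With edgeR's default filter it did not pass in any of the 11 comparisons, its adjusted p being lowest for VWF against LPS at 16 h (log2 0.41, adjusted p = 0.0853). Without LPS replicate 4 and Control replicate 5 that difference was 0.59 (adjusted p = 0.00788). With the replicate number as a block it was 0.46 (adjusted p = 0.00362). That pairing was taken from correlations in these same data and is not stated in the labels, so it gives no separate support. In LPS cultures Rpia was -0.29 at 16 h against 3.5 h (adjusted p = 0.225), and -0.48 (adjusted p = 0.0137) without LPS replicate 4. Under library size scaling Rpia passed as lower with LPS against control, at -0.57 at 3.5 h and -1.09 at 16 h (adjusted p = 0.00203 and 0.00133 in edgeR).

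Tkt and Taldo1, which carry the sugar transfers of the non-oxidative branch, had similar courses. At 3.5 h Tkt measured 341, 337, 397, 323 and 363 CPM in controls, 304, 342, 390, 403 and 321 CPM with VWF and 430, 353, 411 and 465 CPM with LPS. Taldo1 measured 628, 648, 762, 503 and 641 CPM in controls, 541, 679, 762, 689 and 540 CPM with VWF and 744, 684, 802 and 778 CPM with LPS. The groups overlapped for both genes. Neither passed in edgeR with VWF (Tkt log2 -0.09, interval -0.27 to 0.10, and Taldo1 -0.07, interval -0.34 to 0.19). With LPS neither passed in edgeR (0.19 and 0.20, adjusted p = 0.0952 and 0.148), but Tkt passed in DESeq2 (0.21, adjusted p = 0.0418). Under library size scaling the LPS values turned to -0.35 and -0.34 and passed as lower (adjusted p = 0.00377 and 0.0083 in edgeR). The VWF values then passed as lower too (-0.31 and -0.29, adjusted p = 0.00305 and 0.0302).

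At 16 h Tkt separated the LPS cultures from the rest. It measured 481, 450, 511, 505 and 1038 CPM in controls, 510, 527, 558, 654 and 597 CPM with VWF and 263, 307, 317 and 444 CPM with LPS. The LPS values lay below all others. LPS lowered it 1.85-fold (log2 -0.89, SE 0.30, adjusted p = 0.031 in edgeR), and by -0.75 (adjusted p = 1.47e-05) without the 2 libraries that stood apart; without any of LPS replicates 1, 2 and 3 the call was lost (adjusted p up to 0.0866), and without Control replicate 5 alone the change was -0.57 (adjusted p = 0.014). VWF cultures lay 1.68-fold above LPS cultures (log2 0.75, adjusted p = 0.00208), while against control VWF gave -0.19 (interval -0.70 to 0.32, adjusted p = 0.632), or 0.12 without Control replicate 5.

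Taldo1 at 16 h measured 694, 623, 732, 658 and 1084 CPM in controls, 754, 799, 854, 918 and 965 CPM with VWF and 430, 546, 543 and 712 CPM with LPS. The VWF cultures lay above all LPS cultures, by 1.51-fold (log2 0.60, SE 0.14, adjusted p = 0.00513 in edgeR). Against control, LPS gave -0.49 (adjusted p = 0.0859), which passed without the 2 libraries (-0.45, adjusted p = 0.00145) but not without Control replicate 5 alone (-0.30, adjusted p = 0.113), and VWF gave 0.06 (interval -0.29 to 0.41, not past the test), or 0.24 with an adjusted p of 0.0463 without Control replicate 5. The change of the LPS effect between the times was tested directly: it was -1.07 for Tkt (SE 0.32, adjusted p = 0.011) and -0.67 for Taldo1 (SE 0.24, adjusted p = 0.0307, lost when any of 7 of the 18 cultures was left out, adjusted p up to 0.071).

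Tkt rose with time outside the LPS groups. It was 1.78-fold higher at 16 h than at 3.5 h in controls (adjusted p = 0.0183 in edgeR; log2 0.83, or 0.50 without Control replicate 5) and 1.68-fold higher with VWF (adjusted p = 4.24e-05), and in LPS cultures it was -0.25 (adjusted p = 0.232), or -0.43 (adjusted p = 0.00614) without LPS replicate 4 at 16 h. Taldo1 was 1.24-fold higher at 16 h in controls (adjusted p = 0.174 in edgeR) and 1.39-fold higher with VWF (adjusted p = 0.00264). Its VWF effect changed with time by 0.16 on the log2 scale (adjusted p = 0.62). With LPS Taldo1 was -0.37 (adjusted p = 0.059), or -0.51 (adjusted p = 0.00123) without LPS replicate 4. Pgd rose in all 3 treatments, by 1.35-fold in controls, 1.31-fold with VWF and 1.26-fold with LPS (adjusted p = 0.0128, 0.00166 and 0.0286), and the LPS rise lost its call when any of 4 of the 8 cultures was left out (adjusted p up to 0.08).

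Pgd, the second NADPH-making step, had the narrowest range of group means in the oxidative branch, 0.57 on the log2 scale against 0.98 for G6pdx and 1.17 for Pgls. Its group means at 3.5 h were 499 ± 47.8 CPM in controls, 587 ± 52.2 with VWF and 568 ± 24.8 with LPS (SD, n = 5, 5 and 4). At 16 h they were 645 ± 82.6, 739 ± 61.1 and 685 ± 93.0 CPM. No treatment comparison passed in edgeR, with differences from control between 0.04 and 0.15 on the log2 scale. In DESeq2 the LPS rise at 3.5 h passed (0.16, adjusted p = 0.0463). Under library size scaling the LPS differences turned to -0.39 at 3.5 h and -0.51 at 16 h, and both passed as lower (adjusted p = 0.000783 and 0.00195 in edgeR). VWF against LPS then passed as higher at both times (0.33 and 0.54, adjusted p = 0.00269 and 0.00127).

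G6pdx and Pgls, the first steps of the oxidative branch, went in opposite directions with time in LPS cultures. G6pdx, the entry enzyme, measured 103, 103, 117, 157 and 141 CPM in controls at 3.5 h, 134, 121, 108, 127 and 175 CPM with VWF and 77.3, 117, 110 and 106 CPM with LPS. At 16 h it measured 127, 150, 160, 145 and 39.7 CPM in controls, 123, 120, 178, 89.3 and 159 CPM with VWF and 222, 215, 329 and 101 CPM with LPS. Of the LPS cultures at 16 h, 3 lay above every other culture and replicate 4 lay among the controls. From 3.5 h to 16 h G6pdx rose 2.20-fold with LPS (log2 1.14, SE 0.30, adjusted p = 0.00921 in edgeR). Against control at 16 h it gave 0.77 (SE 0.41, adjusted p = 0.143), and 0.78 (SE 0.14, adjusted p = 0.000662) without the 2 libraries, and VWF against control gave -0.01 (interval -0.73 to 0.72). VWF against LPS at 16 h gave -0.72 (adjusted p = 0.0614 in edgeR), and it passed in DESeq2 (-0.72, adjusted p = 0.0325). It also passed without LPS replicate 4 (-0.95, adjusted p = 0.00312 in edgeR). With the replicate block it passed too (-0.72, adjusted p = 0.00104), but that pairing was taken from these same data. Ikbkg, whose exons overlap G6pdx, also averaged higher with LPS at 16 h, at 96.0 CPM against 51.1 CPM in controls.

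Pgls, the lactonase, measured 145, 140, 165, 96.1 and 120 CPM in controls at 3.5 h, 108, 162, 179, 170 and 95.6 CPM with VWF and 222, 135, 190 and 200 CPM with LPS. It was 1.36-fold higher with LPS (log2 0.44, SE 0.17, adjusted p = 0.0449 in edgeR) with overlapping groups, lost its call when any of 6 of the 9 cultures was left out (adjusted p up to 0.139), and was -0.09 under library size scaling. At 16 h it measured 159, 139, 162, 149 and 511 CPM in controls, 183, 184, 147, 298 and 173 CPM with VWF and 62.2, 84.2, 70.3 and 149 CPM with LPS. All LPS cultures but replicate 4 lay below every control and VWF culture. LPS lowered it 2.54-fold (log2 -1.34, SE 0.49, adjusted p = 0.042), and by -1.11 (SE 0.10, adjusted p = 5.14e-06) without the 2 libraries, by -0.75 without Control replicate 5 alone (adjusted p = 0.0345), with the call lost without any of LPS replicates 1, 2 and 3 (adjusted p up to 0.109). VWF cultures lay 2.12-fold above LPS cultures (adjusted p = 0.0102), and the LPS effect changed with time by -1.78 (SE 0.53, adjusted p = 0.0107), or by -1.18 without Control replicate 5 alone (adjusted p = 0.00601). Fam129c, which shares exon sequence with Pgls, averaged at most 2.19 CPM in any group.

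Within groups, too, G6pdx and Pgls lay on opposite sides of their means. In 24 of 28 cultures, a culture above its group mean in one was below it in the other. This was not particular to the pair. Rpia lay opposite to G6pdx in 26 of 28 cultures, Tkt and Taldo1 in 20 each, Pgd in 16, Rpe in 12 and Shpk in 9. The deviations moved with transcript length: the slope of a culture's deviations on log2 transcript length had the sign of its G6pdx deviation in 24 of 28 cultures and the opposite sign to its Pgls deviation in 24. Since deviations within a group sum to 0, these counts are descriptions. With this slope as a covariate, the LPS changes against control at 16 h were 0.80 for G6pdx and -1.21 for Pgls. The slopes also sum to 0 within each group, so the covariate takes up spread within groups only. It cannot take out a length trend between groups, and these values do not test for one.

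**Figure D3:**
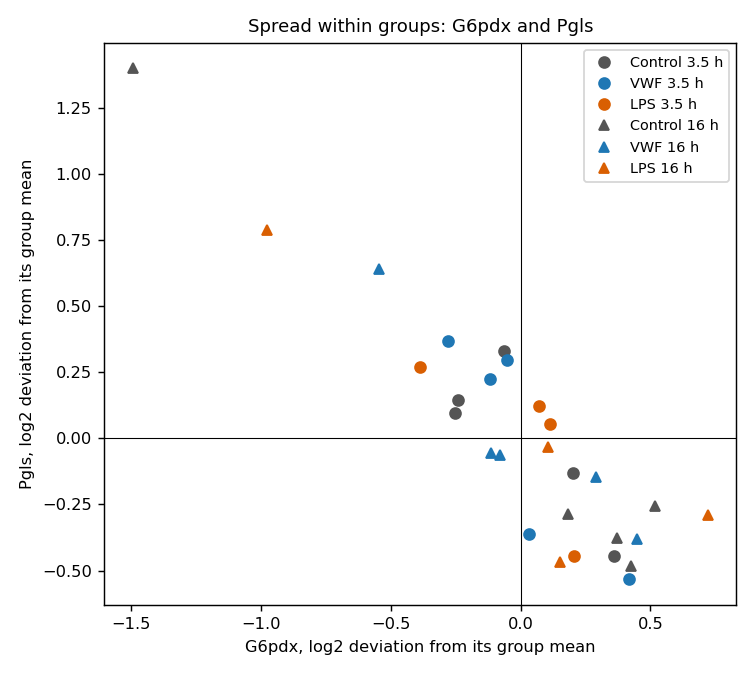
Log2 deviation of each culture from its group mean for G6pdx (x axis) and Pgls (y axis), coloured by treatment, with circles for 3.5 h and triangles for 16 h. Of the 28 cultures, 24 lie above 0 on one axis and below 0 on the other, and Control replicate 5 at 16 h lies farthest out.

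The balance of the branches within a culture does not depend on the scaling between cultures, but it does rest on the merged exon lengths. The summed CPM per kb of Rpia, Rpe, Tkt and Taldo1 over that of G6pdx, Pgls and Pgd was 2.31 ± 0.245 in controls, 2.08 ± 0.21 with VWF and 2.47 ± 0.0603 with LPS at 3.5 h (SD, n = 5, 5 and 4). At 16 h it was 2.20 ± 0.131 in controls and 2.33 ± 0.115 with VWF, and in LPS cultures it was 1.44, 1.60, 1.30 and 2.15. The first 3 of these lay below all other 25 cultures, and replicate 4 lay within the control range of 2.07 to 2.41. Over the same cultures the G6pdx to Pgls ratio per kb was 4.36, 3.12, 5.73 and 0.834 with LPS at 16 h, against 0.095 to 2.25 in the cultures of the other 5 groups. The length slopes of these LPS cultures were 0.071, -0.032, 0.113 and -0.152 in the same order. Among them, the lower the branch ratio, the higher was the slope. The part of the length trend in either ratio was not tested.

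**Figure D4:**
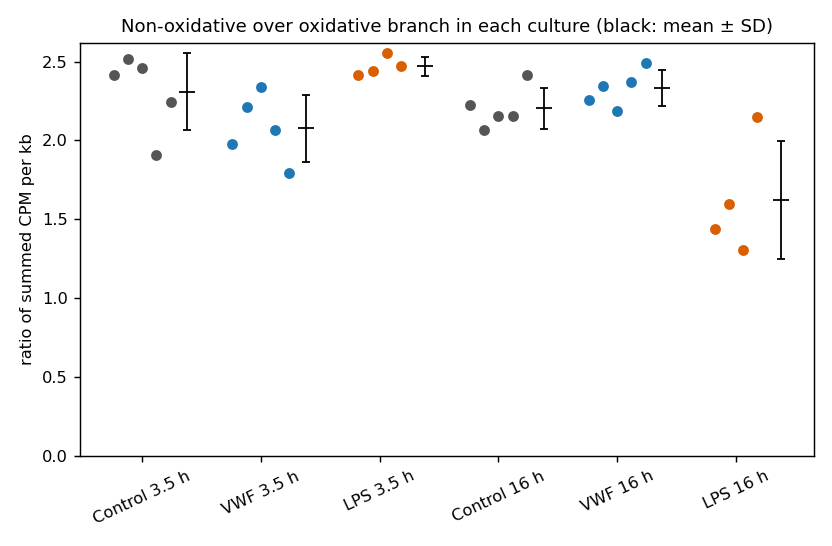
Summed CPM per kb of the non-oxidative enzymes (Rpia, Rpe, Tkt, Taldo1) divided by that of the oxidative enzymes (G6pdx, Pgls, Pgd) in each culture, from 0, with black bars for the mean ± SD. LPS replicates 1 to 3 at 16 h lie at 1.44, 1.60 and 1.30, below all other cultures. The part of the transcript length trend in this ratio was not tested.

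The genes whose 6 group means were most like a member's were found by the root mean square (RMS) difference of centred log2 values over 8866 genes. For Tkt they were Mrps25, Spaca9 and Ptpa (RMS 0.05 to 0.06), for Taldo1 Emc2, Asnsd1 and Dad1, for Pgd Ndufaf1, Pigk and Babam1, for G6pdx Ube4a, Msl1 and Faf2, and for Shpk Gorasp1, Helb and Gba2 (RMS 0.11 to 0.18). Among the members, Rpia and Taldo1 were closest (RMS 0.12), followed by Tkt and Taldo1 (0.17), and Shpk was at least 0.97 from every other member.

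Of 13 other genes around the pathway, 10 were tested at each time against control. With VWF 1 was higher and 1 lower at 3.5 h, beside 22.3% and 21.3% of all genes, and 2 were higher and 1 lower at 16 h, beside 13.1% and 14.7%, with the endoplasmic reticulum enzyme H6pd at 0.98 (SE 0.25, adjusted p = 0.013 in edgeR) and the deoxyribose phosphate aldolase Dera at 0.86 (SE 0.06, adjusted p = 3.2e-06). LPS gave 2 higher and 3 lower at 3.5 h, beside 31.8% and 33.9% of all genes, and 2 higher and 4 lower at 16 h, beside 27.3% and 26.4%, with the phosphoribosyl pyrophosphate synthetase Prps2, which uses ribose 5-phosphate, at -2.14 (SE 0.20, adjusted p = 1.6e-05) and the gluconate kinase Idnk at 1.95 (SE 0.35, adjusted p = 0.00101). The testis-type paralogue G6pd2 had 0 counts in every culture, which allows up to 3 counts per library.

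A further list joined other sources of NADPH with NADP synthesis, to which the NAD kinases Nadk and Nadk2 belong. Of its genes, 6 were tested with LPS at 16 h, and 4 were lower and 1 higher, beside 26.4% and 27.3% of all genes (median log2 -0.99, all genes -0.03). The folate enzyme Mthfd1 stood at -2.35 (SE 0.24, adjusted p = 2.75e-05 in edgeR) and the mitochondrial isocitrate dehydrogenase Idh2 at -2.34 (SE 0.22, adjusted p = 1.45e-05). With VWF at 16 h, 3 of 7 were higher and none lower, beside 13.1% and 14.7% of all genes, with the NAD kinase Nadk at 1.33 (SE 0.15, adjusted p = 8.04e-05) and the malic enzyme Me1 at 0.73 (SE 0.11, adjusted p = 0.000565). At 3.5 h, of 6 tested, 1 was higher and 1 lower with VWF, beside 22.3% and 21.3% of all genes, and 1 higher and 2 lower with LPS, beside 31.8% and 33.9%.

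Of 12 NADPH users, 6 were higher and 2 lower with VWF at 3.5 h, beside 22.3% and 21.3% of all genes, and 4 were higher and 3 lower with LPS, beside 31.8% and 33.9%. Cybb, the catalytic subunit of the phagocyte NADPH oxidase, averaged 485 CPM in controls, 1573 CPM with VWF and 1612 CPM with LPS. Nos2, the inducible nitric oxide synthase, averaged 0.027 CPM in controls, 51.6 CPM with VWF and 142 CPM with LPS at 3.5 h, and at 16 h 0.012, 0.277 and 2109 CPM. At 16 h, 4 of 10 were higher and 1 lower with VWF, beside 13.1% and 14.7% of all genes, and 6 of 11 higher and 1 lower with LPS, beside 27.3% and 26.4%.

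Cell division genes fell with LPS at 16 h in 6 of 6, beside 26.4% of all genes (median log2 -4.47), led by Top2a at -5.64 (SE 0.27, adjusted p = 2.05e-07 in edgeR) and Ccnb1 at -4.97 (SE 0.33, adjusted p = 1.67e-06). With VWF at 16 h 4 of 6 were lower and 1 higher, beside 14.7% and 13.1% of all genes, with Mki67 at -1.45 (SE 0.17, adjusted p = 9.73e-05). At 3.5 h 2 of 6 were lower with VWF, beside 21.3% of all genes, and with LPS 3 were lower and 1 higher, beside 33.9% and 31.8%. The part of these genes in the changes of pathway members was not tested.

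The counts at 16 h were also taken without the 2 libraries that stood apart, where 20.6% of all genes were higher and 22.0% lower with VWF, and 37.6% and 37.6% with LPS. Then 3 of 10 genes around the pathway were higher and 1 lower with VWF, and 3 higher and 4 lower with LPS; H6pd stood at 0.81 with VWF (adjusted p = 0.00278 in edgeR). Of the genes of NADPH sources and NADP synthesis, 5 of 7 were higher with VWF, and 2 of 6 were higher and 4 lower with LPS. Of the NADPH users, 6 of 10 were higher and 2 lower with VWF, and 8 of 11 higher and 1 lower with LPS. The cell division genes gave the same counts as with all cultures.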

How the data were processed

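The values deposited by the authors are raw counts, 1 whole number per gene and culture in 28 cultures, which they obtained with STAR on GRCm38 from paired reads; the sources used here do not give the STAR version, the annotation or the strand setting. Groups came from the labels. Lengths came from GENCODE M21, and TPM was computed here from the counts. Genes below 10 TPM in every culture of a comparison were removed, following the study's own filter. Differences were tested with edgeR 4.0.16 under R 4.3.3 (robust quasi-likelihood fit, TMM factors) on only the cultures of each comparison; the study's tool, DESeq2 (1.42.0), was run beside it. Shpk and, where untested, Rpia were taken from fits with edgeR's filterByExpr. The 11 comparisons were adjusted separately by Benjamini-Hochberg over all genes tested. SE is the absolute log2 fold change over the square root of F. Motif matching used Python 3.11.15; the letters of the NF-kB and interferon motifs were changed once after a first search had found neither in a member. The edgeR fits were tested on simulated data.

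Members, lists and tests were chosen with earlier results of these data known. All members are named; of the lists, up to 2 genes with the largest change past the test per comparison are named, and the levels of Cybb and Nos2 stand in for folds. Replicate numbers come from the labels. Deviations of same-numbered cultures correlated over 0.1 in every pair only for VWF against LPS at 16 h (0.159 to 0.781, 4 pairs). There a fit with the replicate number as a block was read as a pairing, beside the main fit, which had no block in any comparison. The labels state no pairing, so this reading rests on these data. For VWF against control at 16 h the correlations ran from -0.57 to 0.612. No culture duplicated another (chi-square per degree of freedom at least 15.8 over 52 pairs). Total counts were 41131209 to 77699206 per culture. Some marker genes are not reported here.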

Additional observations from a re-analysis of the deposited data

Results flagged for a closer look

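In groups of 4 or 5 cultures, a culture was singled out when its gap to the nearest other exceeded Dixon's 95% limit, which chance passes in about 1 in 20 groups. Of 48 gene and group combinations, 9 did. Control replicate 5 at 16 h accounted for 6 of them: G6pdx at 39.7 CPM against 127 to 160 in the other 4 cultures, Rpe at 24.0 CPM against 33.5 to 36.7, Pgls at 511 CPM against 139 to 162, Rpia at 27.7 CPM against 13.1 to 14.1, Tkt at 1038 CPM against 450 to 511 and Taldo1 at 1084 CPM against 623 to 732. VWF replicate 4 at 16 h had Pgls at 298 CPM against 147 to 184 and Shpk at 2.79 CPM against 4.17 to 4.61. LPS replicate 3 at 16 h had Rpe at 63.2 CPM against 52.8 to 54.4.

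The treatment effect differed between 3.5 h and 16 h, by a test of the difference itself, for Shpk with VWF (log2 1.19) and with LPS (1.94), and with LPS for Pgls (-1.78), Tkt (-1.07) and Taldo1 (-0.67). Without Control replicate 5 and LPS replicate 4 at 16 h the values were 1.01, 1.96, -1.53, -0.93 and -0.63, each with an adjusted p under 0.05 in edgeR. G6pdx with LPS gave 1.11 (adjusted p = 0.0543 in edgeR), and 1.12 (adjusted p = 0.000439) without those 2 libraries. In DESeq2 it gave 1.10 and passed (adjusted p = 0.0317).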

How the results depend on the processing

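The counts of members past the test moved with the settings; except with filterByExpr and with no filter, they leave out members under the TPM filter, Shpk among them. The order is VWF, LPS and VWF against LPS at 3.5 h, the same 3 at 16 h, control, VWF and LPS over time, and the VWF and LPS interactions (1, 2, 1, 1, 3, 4, 2, 4, 3, 0 and 3 as reported). Requiring a fold over 2 as well left 0 members for VWF, LPS and VWF against LPS at 3.5 h, for VWF at 16 h and for control and VWF over time, and 1 each for LPS at 16 h, VWF against LPS at 16 h and LPS over time. Library size scaling gave 2, 4 and 2 at 3.5 h, and 0 for VWF and 5 for LPS at 16 h. DESeq2 gave 4 for LPS at 3.5 h, with Pgd and Tkt gained, and 3 for VWF against LPS at 3.5 h, with Tkt and Taldo1 gained. For the latter, median-of-ratios factors, filterByExpr, no filter and 10 TPM in any of 28 cultures gave 2 each. DESeq2 also called G6pdx in VWF against LPS at 16 h and in the LPS interaction (adjusted p = 0.0325 and 0.0317). Over time it called Pgls with VWF and Taldo1 with LPS (adjusted p = 0.0343 and 0.0241). FilterByExpr also gave 2 for VWF at 3.5 h, 1 for LPS at 16 h and 1 for the VWF interaction, and no filter gave 1 for control over time and 1 for the VWF interaction. One fit of all groups gave 0 and 1 for VWF and LPS at 3.5 h and 6 for LPS at 16 h. With the slope on transcript length as a covariate, added after the data had been seen and made from the cultures' own deviations, so that its p-values are too small, the counts were 2, 6 and 5 at 3.5 h, 6 for LPS at 16 h, 4 for control and 6 for LPS over time and 5 for the LPS interaction. Leaving out both libraries that stood apart, also added later, gave 2 for VWF and 5 for LPS at 16 h and 5 for LPS over time. With the replicate block the counts were 0 for VWF and 1 for LPS at 3.5 h, and 5 for VWF against LPS at 16 h. That is the one comparison in which the block was read as a pairing, a choice made from these data. Its values above are from the fit without the block, except where the block is named. There the block changed the calls of G6pdx and Rpia, given above, and no other. Elsewhere the cultures were taken to share only a number. Leaving out 1 culture at a time gave 0 to 1, 1 to 4 and 1 to 4 members at 3.5 h, 0 to 2, 1 to 4 and 4 to 5 at 16 h, 2 to 3, 4 to 5 and 2 to 5 over time, and 0 to 0 and 2 to 4 for the interactions. In the fits whose counts are given here, other than those that leave out 1 culture, the share of all genes past the test was 8.71% to 28.1% with a fold over 2, 26.3% to 77.1% with library size scaling, 56.1% to 68.9% with DESeq2, 11.0% to 20.2% with no filter, 25.0% to 46.2% with filterByExpr, 41.4% to 65.2% in one fit of all groups and 62.0% to 78.2% with the length slope. Without the libraries that stood apart it was 42.6% for VWF and 75.2% for LPS at 16 h and 71.5% for LPS over time, and with the block it was 43.7% for VWF and 59.2% for LPS at 3.5 h.

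Under library size scaling the sign turned for Rpe with VWF at 3.5 h (-0.0010), for Pgls (-0.090), Pgd (-0.39), Rpia (-0.57), Tkt (-0.35) and Taldo1 (-0.34) with LPS at 3.5 h, for Pgd with LPS at 16 h (-0.51) and for Rpe in VWF against LPS at 16 h (0.14). With LPS at 3.5 h, Pgd, Rpia, Tkt and Taldo1 then passed as lower (adjusted p = 0.000783, 0.00203, 0.00377 and 0.0083 in edgeR). So did Pgd with LPS at 16 h (adjusted p = 0.00195). Of 1786 refitted values of a member, 1622 kept their side of the threshold, 58 lost and 98 gained the call and 8 turned as above, and in 97 of those kept the sign changed with neither fit past the threshold. Of 32 calls, 19 held under every alternative run, among them those of Shpk in all 3 comparisons at 3.5 h, over time with either treatment and in both interactions, and the LPS interactions of Pgls and Tkt. The cause of these changes was not tested. Counts of 13 to 23 limit Shpk with LPS at 3.5 h.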
